A study of Mus musculus with 6 samples.

Results

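The autophagy machinery genes examined here are 36 genes whose proteins start, build and load autophagosomes. They were chosen by gene name from the 23698 rows of the count tables of 1 squamous cell carcinoma cell line. All 36 had a row of their own, so none was counted jointly with another gene. The libraries came from SCCc, cultured mouse keratinocytes of newborn (P0) back skin with the genotype HrasG12V; Tgfbr2 fl/fl KO, used at passages 10 to 15. Because SCCc is 1 line, grown from grafted tumours, the values cover no variation between lines or animals. The libraries were 1 ribosome profiling library (SCC_ribo) and 2 RNA-seq libraries (SCC_RNA replicates 1 and 2). Wild-type keratinocyte and epidermal stem cell libraries were not analysed here, so each value compares a gene with the other genes of the same cells. Nothing in the labels says whether the RNA-seq replicates came from separate cultures.

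Autophagy encloses cytoplasm in a double membrane, the autophagosome, and delivers it to lysosomes for breakdown. The ULK kinase complex starts the process, the class III phosphatidylinositol 3-kinase complex marks the membrane, lipid transfer proteins let it grow, and conjugation enzymes attach Atg8 family proteins to it, which bind cargo receptors. In the epidermis autophagy takes part in the removal of organelles during the final differentiation of keratinocytes and is active under starvation and stress.

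Ribosome profiling sequences the mRNA fragments protected by ribosomes, called footprints, and RNA-seq measures the mRNAs. The exon counts summed to 3549555 in the ribosome profiling library, of which 90.1% lay on coding sequence (CDS), and to 10707930 and 14003713 in RNA-seq replicates 1 and 2. The members held 0.167% of the footprints, against 0.341% and 0.346% of the RNA-seq counts. Levels are given as RPKM, counts scaled by the counted length of the region and by the exon total of the library. Translational efficiency (TE) divided the RPKM of footprints on CDS by the average exon RPKM of both RNA-seq replicates. It is given as log2 relative to the median gene, which is the median over the genes kept by the filters. Genes were kept when RNA-seq gave more than 1 RPKM in each library, when the mean normalised count over the 3 libraries (base mean) exceeded 25, and when footprints were found on a counted CDS. Genes with mRNA but no footprints on the CDS were thus left out, also from the median gene and the shares of passing genes. With 1 ribosome profiling library there was no replicate check of TE and no test. SDs of TE cover the 2 RNA-seq replicates only. The 95% Poisson intervals cover counting error only, and those of TE only that of the footprints, with the mRNA level taken as exact. Since a molecule copied by PCR can be read more than once, the intervals can be too narrow even for counting error.

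The RNA-seq libraries carried keratinocyte markers. All 10 keratinocyte markers were above 1 RPKM in both, with a summed level of 15372 and 17534 RPKM, led by Krt5 at 7965 and 9483 RPKM. The 8 fibroblast markers summed to 10.3 and 16.0 RPKM, led by Col3a1 at 3.89 and 5.49 RPKM, and the 6 melanocyte markers to 5.49 and 5.52 RPKM, led by Pmel. The 6 immune markers summed to 38.0 and 46.1 RPKM. The lysosomal protein gene Cd68 made up most of that sum, at 35.1 and 37.3 RPKM. The lysozyme gene Lyz2 of myeloid cells was at 2.71 and 8.56 RPKM, from 30.7 and 127 counts, while Ptprc was at 0.0824 and 0.176 RPKM and Cd3e and Cd207 were at 0 counts. The 4 endothelial markers summed to 0.505 and 0.652 RPKM, led by Kdr. The part of other cells in the values of the members was not tested, and in bulk libraries fewer cells of a type and less RNA per cell cannot be told apart.

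Most of the autophagy machinery lay below the median gene in TE. Of the 36 members 34 passed the filters, and 24 of these had a log2 TE below 0. Their median log2 TE was -0.61. It was below -1 for 12 members (35.3%), against 21.1% of all 9862 passing genes, and above 1 for 2 members (5.88%), against 20.7% of all passing genes. The 95% counting interval lay wholly below -1 for 9 of the 34 members, against 12.9% of all passing genes, and wholly above 1 for 1 member, against 15.7%. The roles differed: every passing member of the ULK complex, the phosphatidylinositol 3-kinase complex and the cargo receptors was below 0, while 4 of the 5 Atg8 family genes were above it. They also differed in median counted CDS, with 3111, 2068.5 and 2073 nt in those 3 roles and 349 nt in the Atg8 family. All passing genes under 600 nt had a median log2 TE of 1.02, and the part of length was not tested. Without division by counted length, 3 of the 5 Atg8 family genes, 3 of the 5 cargo receptors and 3 of the 4 genes of the phosphatidylinositol 3-kinase complex were below 0.

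**Figure D1:**
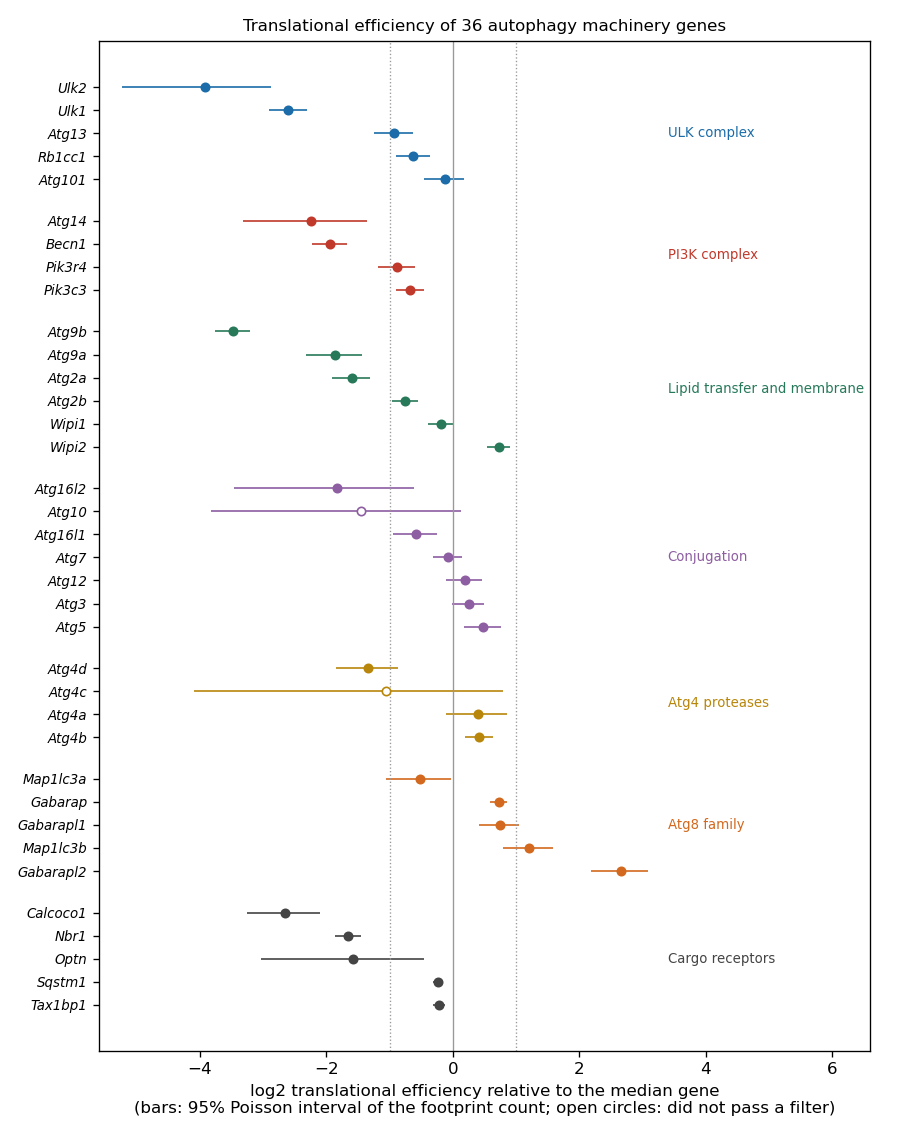
Log2 TE of the 36 members relative to the median gene, grouped by role, with 95% Poisson intervals of the footprint count as bars; open circles mark the 2 members that did not pass the filters. The ULK complex, the phosphatidylinositol 3-kinase complex and the cargo receptors lie below 0, though without division by length 3 of the 4 kinase complex genes and 3 of the 5 cargo receptors did, and Atg101 was above 0 with RNA-seq replicate 1 alone. Gabarapl2 lies highest at 2.66.

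Of the ULK complex, Ulk1 and Ulk2 encode the protein kinases that receive nutrient signals and start autophagy. Ulk1 (chr5:110784488-110810097, minus strand, GRCm38) had 38.6 and 41.2 RPKM in RNA-seq replicates 1 and 2 and 93 footprints on the CDS (95% interval 75.1 to 114), at 8.31 RPKM. Its log2 TE was -2.61 ± 0.08 (SD, n = 2), 6.09-fold below the median gene. Ulk1 mRNA was thus above the median mRNA of passing genes (15.3 RPKM) while its footprint density was below the median one (19.1 RPKM). Ulk2 (chr11:61775649-61855073, minus strand) had 7.88 and 7.25 RPKM of mRNA and 7 footprints on 3111 counted nt of CDS (95% interval 2.81 to 14.4). With so few footprints its log2 TE of -3.92 had a counting interval from -5.23 to -2.88, which did not reach the median gene. With a pseudocount of 1 RPKM it was at -2.70, outside that interval. The partners of the kinases were closer to the median. Atg13, the adaptor of the kinases, was at -0.93 ± 0.01, Rb1cc1, the scaffold also called FIP200, at -0.63 ± 0.21, and Atg101, which binds Atg13, at -0.13 ± 0.19. For Atg101 the value was within its SD of 0 and changed sign with RNA-seq replicate 1 alone. Of the annotated CDS of Rb1cc1 73.9% was counted, and 29.4% of its 30-nt windows also occur in Gm13961.

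The phosphatidylinositol 3-kinase complex makes the lipid that recruits later factors. Its scaffold Becn1 (chr11:101285952-101302286, minus strand) encodes Beclin. Becn1 mRNA stood at 69.4 and 71.6 RPKM, among the higher members, and 111 footprints were on its CDS (95% interval 91.1 to 133). Its log2 TE was -1.94 ± 0.04, 3.85-fold below the median gene. Atg14, the subunit that directs the complex to autophagy, had 7.14 and 6.74 RPKM of mRNA and 9.72 footprints, which gave -2.25 with a counting interval from -3.32 to -1.36. The lipid kinase gene Pik3c3 (-0.68 ± 0.07) and its regulatory subunit gene Pik3r4 (-0.89 ± 0.10) were also below the median gene. Without division by length they were at 0.12 and -0.13, and with at least 100 counts in every library at -1.07 and -1.28. Becn1 shares 3104 of its 7065 nt of annotated exons with Cntd1 on the opposite strand. Only 2031 nt of Becn1 exon were counted, so the overlap within the counted part is not known. Cntd1 had 12.6 and 12.1 RPKM of mRNA and 0 footprints, and strand use in the counting is not given in the sources used here, so reads of the pair cannot be told apart where they overlap. In all, 13 members share annotated exons with a gene on the opposite strand, among them Sqstm1 with Mrnip (580 nt) and Atg2b with Gskip (383 nt).

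The membrane genes included the member with the lowest TE on at least 30 footprints. Atg9b encodes a paralog of Atg9a, the lipid scramblase of the vesicles that seed the autophagosome. Atg9b (chr5:24384181-24392143, minus strand) had 92.8 and 98.7 RPKM of mRNA, one of the 5 most abundant members, and only 107 footprints on the CDS (95% interval 87.5 to 129), at 10.9 RPKM. Its log2 TE was -3.48 ± 0.07, 11.2-fold below the median gene and at percentile 1.51 of all passing genes. The Atg9b exons share 294 nt with Nos3 on the opposite strand, which had 1.49 and 1.25 RPKM of mRNA, far under the level of Atg9b. Atg9a was at -1.86 ± 0.12, with 44.9 footprints on the CDS, of which 74.0% was counted. Of the annotated CDS of Atg9a, 29.5% of the 30-nt windows also occur in transcripts of an overlapping gene, Gm29253. The lipid transfer genes Atg2a (-1.60 ± 0.12) and Atg2b (-0.76) were below the median gene, and without division by length Atg2a was at -0.74. Of the Wipi genes, which bind the lipid made by the kinase complex, Wipi1 was at -0.18 ± 0.13, or 0.39 without division by length, and Wipi2 at 0.73 ± 0.06.

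The 6 passing genes of the conjugation enzymes had a median log2 TE of 0.06, which was -0.18 without division by length and -0.22 with RNA-seq over the CDS. Atg7 encodes the activating enzyme of both conjugation reactions and was at -0.08 ± 0.01. Atg3, the conjugating enzyme of the Atg8 family, was at 0.25 ± 0.00, with a counting interval from -0.01 to 0.50. Atg12 and Atg5, which are joined to each other, were at 0.19 ± 0.03 and 0.47 ± 0.02, and Atg16l1, their partner on the membrane, at -0.59 ± 0.15. The side of the median gene depended on the setting for 4 of these. Without division by length Atg5 was at -0.02, Atg12 at -1.36 and Atg7 at 0.07, and Atg3 was at -0.39 with RNA-seq over the CDS. With at least 100 counts in every library Atg3 was at -0.14 and Atg12 at -0.20. Atg16l2, a paralog of Atg16l1, had 2.10 and 2.15 RPKM of mRNA, from 48.8 and 65.1 counts (95% intervals 36.1 to 64.5 and 50.3 to 83.0). Its 5 footprints gave a log2 TE of -1.84 with an interval from -3.46 to -0.62, or -1.04 without division by length and -1.15 with a pseudocount of 1 RPKM. Atg10, the conjugating enzyme of Atg12, had 3.08 and 2.38 RPKM and 2.84 footprints on the CDS, and did not pass the base mean filter (23.5).

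The Atg4 proteases cut Atg8 family proteins before and after conjugation. Atg4a and Atg4b were above the median gene, at 0.39 ± 0.22 and 0.42 ± 0.07, and Atg4d was below it, at -1.34 ± 0.04. With RNA-seq over the CDS Atg4b was at -0.15. For Atg4a the counting interval, from -0.11 to 0.86, included 0, and 82.4% of the 30-nt windows of its CDS also occur in the pseudogene Atg4a-ps. Atg4d shares 1405 of its 7264 nt of annotated exons with Kri1 on the opposite strand, while 3024 nt of Atg4d exon were counted. Kri1 had 19.2 and 19.8 RPKM of mRNA against 14.4 and 14.8 RPKM for Atg4d. Atg4c was the least abundant member, at 0.639 and 0.705 RPKM from 20.9 and 30.1 counts (95% intervals 12.9 to 31.9 and 20.3 to 42.9), and did not pass the RPKM filter. It had 2 footprints on the CDS.

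The Atg8 family genes encode the small proteins that become attached to the membrane. Gabarap had 179 and 194 RPKM of mRNA and 484 footprints, at 391 RPKM, the highest footprint density of all members, and its log2 TE was 0.73 ± 0.10. This value was 0.10 without division by length, 0.30 with RNA-seq over the CDS and 0.33 with at least 100 counts in every library. Gabarapl1 had 29.0 and 33.5 RPKM of mRNA and 82.5 footprints, and its log2 TE was 0.74 ± 0.16, but -0.58 without division by length. The mRNA of Gabarap was thus the more abundant of the 2, while the order of their TE depended on the setting. Map1lc3a had 26.7 and 30.9 RPKM of mRNA and 32.8 footprints, and was below the median gene, at -0.52 ± 0.16. It was at -1.03 without division by length and at -1.20 with RNA-seq over the CDS. Counting covered 99.4% of the CDS in Gabarap and all of it in Gabarapl1 and Map1lc3a.

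The other 2 genes of the family had higher values that rested on a small part of the CDS. Map1lc3b (chr8:121590361-121598760, plus strand), the source of the LC3B protein used as an autophagosome marker, had 70.5 and 71.4 RPKM of mRNA and 56.7 footprints. They lay on 77 counted nt, 20.5% of the CDS. Its log2 TE was 1.20 ± 0.02. Gabarapl2 (chr8:111940703-111953612, plus strand) had 18.6 and 19.3 RPKM of mRNA and 42.0 footprints, which lay on 78 counted nt or 22.2% of the CDS. Its log2 TE was 2.66 ± 0.05. The mRNA level of Gabarapl2 rested on only 37.8 and 51.5 RNA-seq counts over 190 counted nt of exon. Of these, 26.9 and 37.6 counts lay upstream of the start codon. The counting interval of its TE does not cover the error of these RNA-seq counts. Every 30-nt window of the annotated Map1lc3b CDS, and 98.4% of those of Gabarapl2, also occur in transcripts of other annotated genes, led by Gm6055 and Gm3724, so reads of these genes and of their copies are uncertain. With RNA-seq counted over the CDS the values were 4.44 for Map1lc3b and 4.10 for Gabarapl2, on 7.08 and 10.7 RNA-seq counts for Map1lc3b and 8.01 and 8.19 for Gabarapl2. Without division by length Map1lc3b fell to the other side of the median gene, at -1.32. Among genes with at least 80% of the CDS counted, 30 members passed, of which 0 had a log2 TE above 1 and 11 were below -1 (36.7%), against 19.9% and 20.9% of the 8762 genes that passed.

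The start codons of the 5 genes are shown with the bases around them, because they belong to 1 family. Capitals mark the start codon, with 12 bases of 5′UTR before it, in the GENCODE M21 transcript with the principal coding sequence.
Gabarap: gttctcgggagaATGaagttcgtg
Gabarapl1: ctgaggtccatcATGaagttccag
Gabarapl2: cttcccgtcgccATGaagtggatg
Map1lc3a: cgggcccgcgcgATGccctccgac
Map1lc3b: cccccgcgcgccATGccgtccgag
None of the 5 had A or G 3 bases before the start codon together with G after it, a context known to favour initiation, which 17 of the 36 members had.

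Cargo receptors bind cargo, often but not always ubiquitylated, and Atg8 family proteins, and are broken down with the cargo. Sqstm1, which encodes p62, was the most abundant member, at 218 and 231 RPKM of mRNA and 1138 footprints (95% interval 1072 to 1206). Its log2 TE was -0.23 ± 0.07, but 0.16 without division by length and -0.07 with RNA-seq over the CDS. Tax1bp1 had 106 and 92.1 RPKM and 938 footprints, and was at -0.21 ± 0.13, or 0.37 without division by length. Nbr1 had 52.1 and 49.6 RPKM and 205 footprints, and was at -1.66 ± 0.04, so it was lower than Tax1bp1 in both mRNA and TE. Calcoco1 had 17.6 and 18.3 RPKM and 26.6 footprints, and was at -2.65 with an interval from -3.26 to -2.11. Optn had 2.26 and 2.30 RPKM, from 58.4 and 77.6 counts, and 6 footprints, and was at -1.58 with an interval from -3.03 to -0.46. Sqstm1 and Tax1bp1, the receptors with the most mRNA, thus lay near the median gene. The 3 other receptors were below -1, though the interval of Optn reached -0.46.

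**Figure D2:**
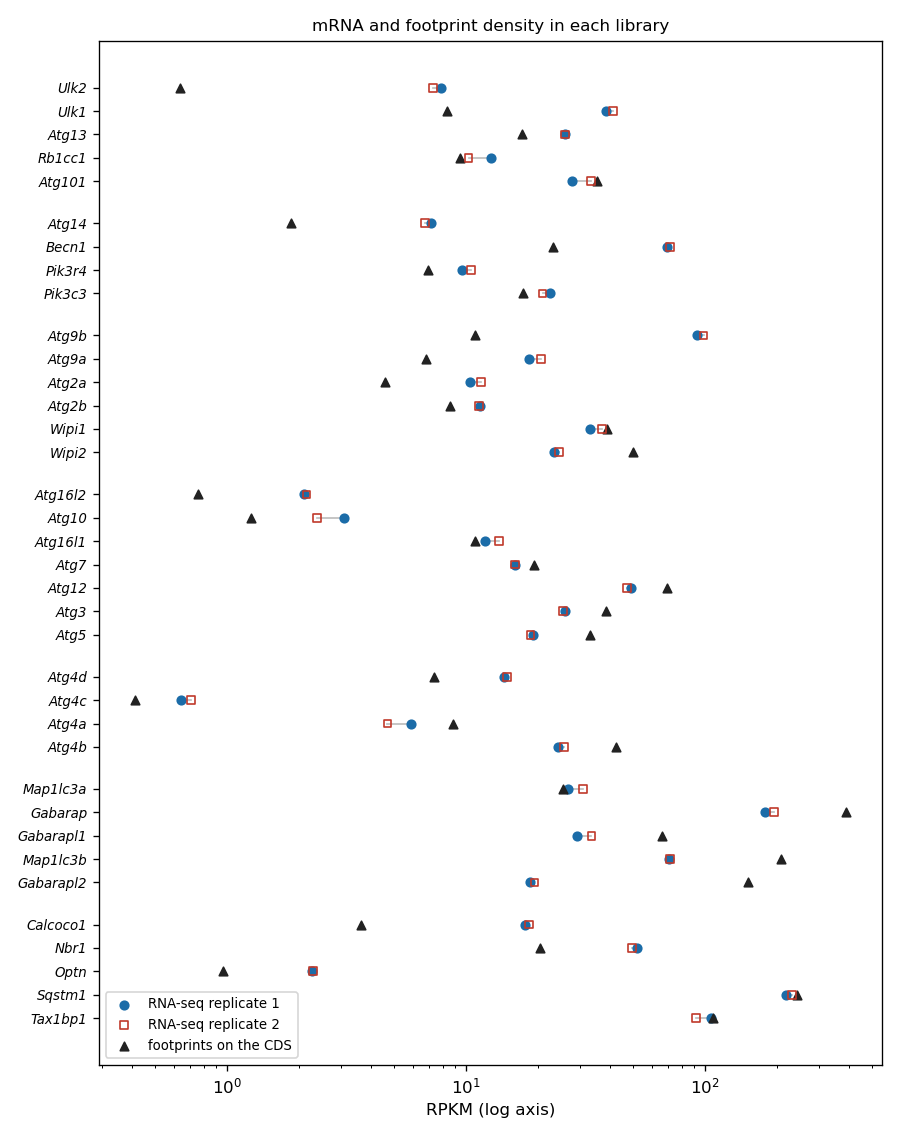
RPKM of each member on a log axis, in RNA-seq replicate 1 (circles), RNA-seq replicate 2 (squares) and the ribosome profiling library on the CDS (triangles), grouped by role. The replicates lie close together, and for Atg9b, Ulk1, Ulk2 and Calcoco1 the footprints lie far to the left of the mRNA.

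In order of mRNA level the members ran from Sqstm1 and Gabarap down to Atg4c. Tax1bp1 (106 and 92.1 RPKM) and Atg9b (92.8 and 98.7 RPKM) overlapped between replicates, as did Map1lc3b (70.5 and 71.4 RPKM) and Becn1 (69.4 and 71.6 RPKM). Of the passing members 6 reached 50 RPKM in both libraries (17.6%, against 15.4% of passing genes), and the median of the passing members was 22.8 RPKM, against 15.3 RPKM for all passing genes. To see whether both files might hold the same library, the counts of the RNA-seq replicates were compared over 11772 rows. Chi-square divided by its degrees of freedom was 6.67, so they were kept as 2 libraries, and the value says nothing more of their spread. The log2 ratio of replicate 2 to replicate 1 had an SD of 0.20 over all passing genes, and 28 of the 34 passing members (82.4%) were within 1 SD of the median ratio, against 71.9% of those genes. The passing members ran from -0.32 for Atg4a to 0.26 for Atg101.

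Footprints on 5′UTRs were few. Density on the 5′UTR was compared with that on the CDS where at least 60 nt and 30 footprints were counted on the 5′UTR and 10 footprints on the CDS. Becn1 was the only member to meet these minimums, and it was denser on the 5′UTR, as were 24.3% of the 1102 genes that met them. It had 33.2 footprints on 138 counted nt of 5′UTR (95% interval 22.9 to 46.6), which is 240 per 1000 nt, against 82.4 per 1000 nt on the CDS. The ratio of 2.92 had a binomial (Clopper-Pearson) interval from 1.92 to 4.33. With a minimum of 10 footprints on the 5′UTR as well as on the CDS, 11 members could be compared and 3 were denser on the 5′UTR, Becn1, Atg9a (ratio 1.62, interval 0.907 to 2.78) and Ulk1 (1.04, interval 0.504 to 1.96), of which only Becn1 had an interval above 1. Of the 2930 genes that met these lower minimums 25.3% were denser on the 5′UTR. Ulk2 fell short of both sets of minimums and was singled out after its values were seen. It had 16 footprints on 516 nt of 5′UTR and 7 on 3111 nt of CDS, a ratio of 13.8 with an interval from 5.36 to 39.6. Gabarap, the lowest of the 11 members with at least 10 footprints on both regions, had 24.7 footprints on 343 nt of 5′UTR against 484 on 349 nt of CDS, a ratio of 0.0519.

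**Figure D3:**
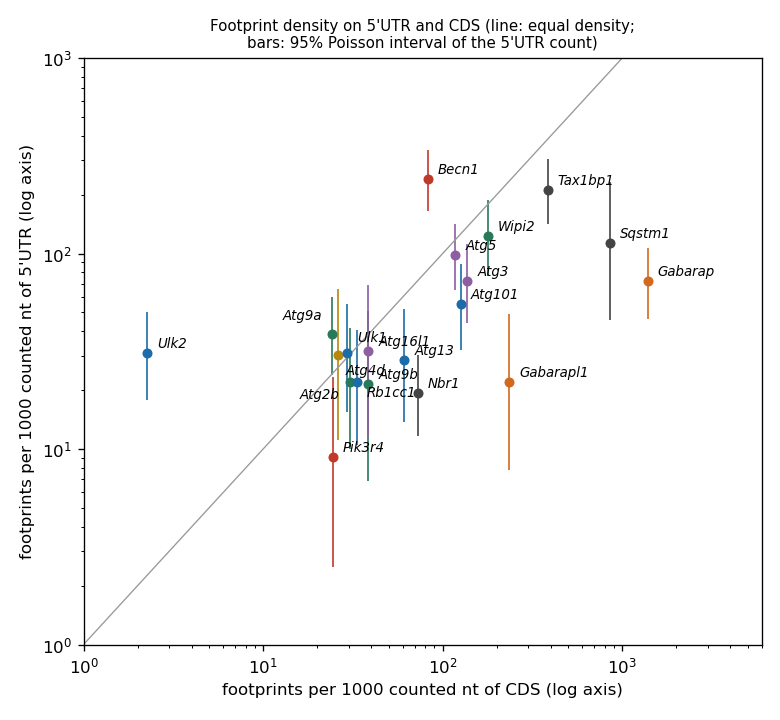
Footprints per 1000 counted nt on the 5′UTR against the CDS, both on log axes, for the 20 members with more than 3 footprints on a 5′UTR of at least 60 counted nt, with 95% Poisson intervals of the 5′UTR count; the line marks equal density. Becn1 and Ulk2 lie above the line with their intervals, and Gabarap lies far below it.

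The annotated 5′UTRs of Becn1 and Ulk2 hold ATG triplets upstream of the start codon, shown here because the density ratio of both had an interval above 1, Ulk2 having been singled out after its values were seen. The Becn1 triplet lies 96 nt before the start codon and opens a frame of 19 codons that ends in the 5′UTR. Ulk2 has 4 such triplets, of which 3 open frames of 20, 27 and 28 codons that end in the 5′UTR, and the last, 19 nt before the start codon, opens a frame that runs into the CDS. Capitals mark the ATG.
Becn1, 96 nt before the start codon: gaagaccgggcgATGggaactctg
Becn1, start codon: ggctcctgaggcATGgaggggtct
Ulk2, 361 nt before the start codon: gcacctgcggggATGgcgcggccc
Ulk2, 224 nt before the start codon: gcggcccgggccATGagaagcgac
Ulk2, 144 nt before the start codon: cggcctctcggcATGagtgtccat
Ulk2, 19 nt before the start codon: ccctagcgctctATGtcccggggg
Ulk2, start codon: gggggcgcggccATGgaggtggtg
The Becn1 triplet and the first Ulk2 triplet have A or G 3 bases before and G after the ATG, as do the start codons of both genes, and the other 3 Ulk2 triplets do not. Of the other members with a ratio above 1 at the lower minimum, Atg9a has 5 upstream triplets and Ulk1 has 2, none in that context. Counts per region do not show where on the 5′UTR the footprints lie, so none can be assigned to a frame.

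Among all members, 23 of 36 (63.9%) had at least 1 ATG in the annotated 5′UTR, against 50.8% of the 9373 passing genes with an annotated transcript, and 9 of 36 had one whose frame runs into the CDS, against 15.9% of passing genes. The median 5′UTR was 197 nt in the members and 178 nt in passing genes. Over passing genes, those with an upstream ATG had a median log2 TE of -0.24 and those without of 0.23. The 12 passing members without one had a median of -0.22, the 9 with a single one 0.42, the 8 with 2 or 3 a median of -0.91 and the 5 with at least 4 a median of -1.66. The medians of the members thus did not fall steadily with the number of triplets. Those of passing genes in the same classes did, from 0.23 to -0.05, -0.36 and -0.47. Below the median of genes of the same class were 11 of the 12 members without an upstream ATG, 2 of the 9 with a single one, 8 of the 8 with 2 or 3 and 4 of the 5 with at least 4. A TOP start, a C followed by at least 4 pyrimidines, was annotated for Atg16l1 only (2.78% against 2.18%). A pyrimidine-rich element (PRTE) of 9 pyrimidines with T at position 6 was found in 6 members (16.7% against 30.3%). A or G 3 bases before the start codon with G after it was found in 47.2% of members and 47.1% of passing genes. Of the 30 members with a promoter sequence in the RefSeq table (GRCm38.p6), 4 held CACGTG in that window around the transcription start, namely Atg14, Atg3, Atg5 and Atg7 (13.3%), against 8.09% of all 27025 genes there. The motif reads the same on both strands.

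TE was lower in genes with a longer counted CDS, and most members from 1200 nt up were below genes of like length. Passing genes under 600 nt had a median log2 TE of 1.02, those from 600 to 1200 nt 0.28, those from 1200 to 2400 nt -0.17 and longer ones -0.63. Of the members, 11 of 13 from 1200 to 2400 nt and 9 of 10 longer ones were below the median of their length class, with medians of -1.34 and -1.24. The 5 members from 600 to 1200 nt had a median of 0.39, and 2 were below the median of their class. Of the 6 members under 600 nt, among them the Atg8 family, 4 were below the median of their class. These were Gabarap (0.73), Gabarapl1 (0.74), Map1lc3a (-0.52) and Atg12 (0.19). Map1lc3b and Gabarapl2, counted over 77 and 78 nt, were above it. The part of length in these values was not tested.

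Other genes of the pathway lay closer to the median gene than the machinery. Over all 6 lists, 65 of 67 genes passed, with a median log2 TE of -0.17. Above 1 were 7 and below -1 were 10 (10.8% and 15.4%), against 20.7% and 21.1% of all passing genes. The regulators of initiation had a median of -0.21 over 11 passing genes, from Mtor (-1.30), the nutrient-sensing kinase that restrains ULK, and Ambra1 (-1.24), a Becn1 partner, to Prkag1 (0.96) and Deptor (1.63). Phagophore genes had a median of -0.30 over 6, from Zfyve1 (-1.81) and Wdr45 (-0.78) to Sh3glb1 (1.12) and Tmem41b (2.19), a scramblase of the endoplasmic reticulum. Fusion genes had a median of -0.24 over 14, from Tecpr1 (-2.34) and Plekhm1 (-1.41) to Vps33a (0.89) and Snap29 (1.36), a SNARE of autophagosome fusion. Further selective receptors had a median of 0.36 over 10, from Wdfy3 (-1.38) and Ccpg1 (-1.35) to Retreg1 (1.89, listed as Fam134b), a receptor for the endoplasmic reticulum, and Ncoa4 (3.30), the receptor for ferritin. Ncoa4 was counted over 215 nt only. The transcription factors of the pathway had a median of -0.33 over 5, from Zkscan3 (-1.83) and Tfeb (-0.85) to Tfe3 (0.07) and Foxo3 (0.21). Lysosomal genes had a median of -0.01 over 19, from Hexa (-2.23) and Glb1 (-1.61) to the protease genes Ctsb (0.74) and Ctsl (0.98).

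**Figure D4:**
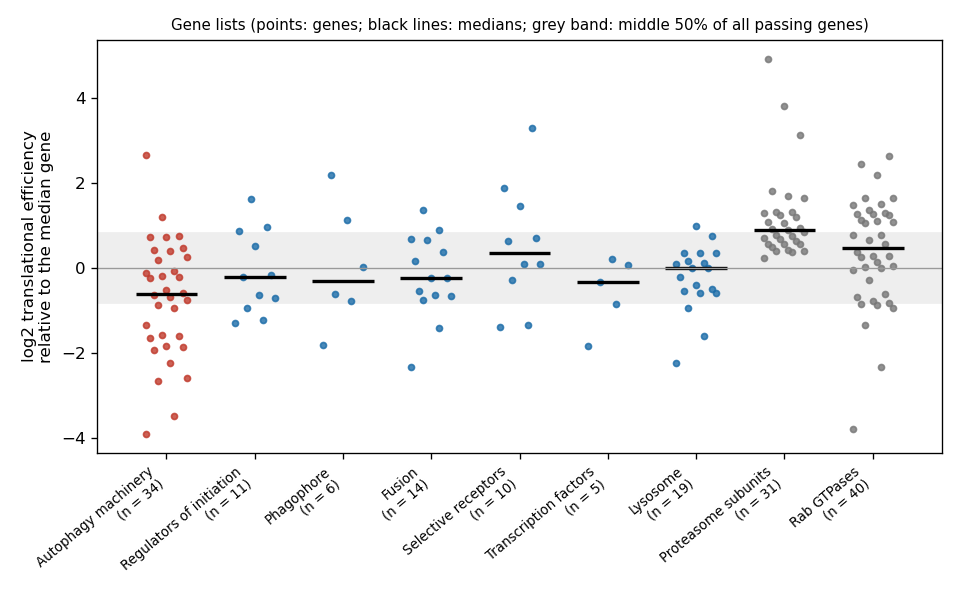
Log2 TE of the passing genes of each list relative to the median gene, with the list median as a black line and the middle 50% of all passing genes as a grey band. The autophagy machinery has the lowest median, -0.61, and the proteasome the highest, 0.89.

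The proteasome and the Rab GTPases, compared as another degradation system and another family of membrane traffic genes, had higher medians. All 31 proteasome subunits passed, with a median log2 TE of 0.89, from Psmd4 (0.23) and Psmc2 (0.37) to Psmb3 (3.81) and Psma5 (4.93). Above 1 were 13 (41.9%) and below -1 were 0, against 20.7% and 21.1% of all passing genes. Psmb3 and Psma5 were counted over 210 and 252 nt. In 9 subunits the counted part came to under 80% of the annotated CDS. Among the 22 with at least 80% counted, a comparison chosen after seeing the data, the median was 0.79. Of these 6 were above 1, against 19.9% of all 8762 passing genes so counted. Of the 57 Rab genes 40 passed, with a median of 0.47, 16 above 1 and 3 below -1, from Rab15 (-3.81, on 2 footprints) and Rab28 (-2.33) to Rab23 (2.44) and Rab11b (2.65). The median counted CDS was 831 nt in the proteasome and 641 nt in the Rab genes, against 1456 nt in the machinery, and the part of this difference was not tested.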

How the data were processed

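The authors trimmed the reads, removed ribosomal, mitochondrial and tRNA footprint reads with Bowtie2 2.4.1, aligned the rest to GRCm38 with STAR 2.6.1, and counted genes with Plastid (tools as given in the methods and in the submitters' processing notes). The deposited values are estimated counts per gene region, which need not be whole numbers. The RPKM values deposited by the authors use a library total larger than the sum of the exon counts and were computed again here from that sum. The annotation release and the use of strand in counting are not given in the sources used here.

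TE was computed with Python 3.11.15, pandas 2.3.3, NumPy 2.4.6 and SciPy 1.17.1. Base means used DESeq2 1.42.0 size factors on counts rounded to whole numbers, and edgeR 4.0.16 gave TMM factors for an alternative. Transcript features came from GENCODE M21, with 1 principal coding transcript a gene, and list genes missing under their symbol were matched by RefSeq synonyms. The calculation was tested on simulated counts. An observed count of 0 allows an expected count of up to 3, and 3 was the cut-off for naming footprints on 3′UTRs. Alternatives covered replicates, pseudocount, length, filters, RNA-seq region, counted share and normalization. Named were the 3 highest and 3 lowest members by TE with at least 30 footprints on the CDS, the Atg8 family, the cargo receptors, the 5 most and 3 least abundant mRNAs, members that failed a filter or were denser on the 5′UTR, and the 2 highest and 2 lowest genes of each other list. The remaining members were also named, under their roles and outside this rule. Members and lists were chosen with earlier results of these data known.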

Additional observations from a re-analysis of the deposited data

Results flagged for a closer look

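Footprints on annotated 3′UTRs entered no comparison, and 10 members had more than 3 of them. This cut-off does not rest on a measured background. Atg7, the activating enzyme gene, had 36.2 footprints on its 3′UTR, Map1lc3b had 20.7, Atg12 17.8, Gabarap 11.2, Sqstm1 10.3, Atg10 10.0, Wipi1 8.64, Becn1 4.18, Atg5 3.82 and Wipi2 3.41. For Atg10 the 3′UTR held more footprints than the CDS, which had 2.84. In Atg7 the 3′UTR density was 23.0 per 1000 nt, against 68.3 on the CDS. Of the passing members 9 of 34 were over 3 footprints (26.5%), against 32.9% of the 9857 passing genes with a counted 3′UTR. The 3′UTRs held 2.35% of the footprints of the members and 1.84% of those of all genes. No control library was analysed here, and the source of these footprints was not tested.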

How the results depend on the processing

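The median log2 TE of the members stayed below 0 under every alternative run. It was -0.63 to -0.60 with either RNA-seq replicate left out, -0.56 with a pseudocount of 1 RPKM, -0.52 without division by length, -0.67 with no filter beyond a count above 0 and -0.58 with RNA-seq over the CDS. The number of members above 1, 2 as reported, was 1 without division by length, 0 with at least 100 counts in every library, where 16 members passed, and 0 among genes with at least 80% of the CDS counted. The number below -1, 12 as reported, was 7 of 16 (43.8%, against 15.7% of all genes that passed) with at least 100 counts in every library and 15 of 34 (44.1% against 21.1%) without division by length. The sign of log2 TE was kept in 25 of 34 members without division by length and in 32 of 34 with RNA-seq over the CDS. The filter of 100 counts keeps genes with more footprints. It left the counts of each member as they were and moved the median gene, which shifted each passing member by -0.39. This put Atg2b (-1.15), Pik3c3, Pik3r4 and Rb1cc1 (-1.02) below -1. With at least 10 footprints on the 5′UTR, 3 of 11 members were denser there than on the CDS in place of 1 of 1, against 25.3% of all genes compared, and with at least 100 footprints no member could be compared. Of the proteasome subunits, 6 of 22 were above 1 among those with at least 80% of the CDS counted, in place of 13 of 31. Of the Rab genes 13 of 37 were, in place of 16 of 40, and of all passing genes so counted 19.9%. This alternative was chosen after seeing the data. Map1lc3b, at 1.20 as reported, was at -1.32 without division by length. Leaving out the division takes the counted lengths of CDS and exons out of TE, which are 77 and 896 nt in Map1lc3b. Which setting lies closer to the translation of a gene was not tested. TMM and DESeq2 size factors nearly cancel in a TE taken relative to the median gene, so they say nothing about its stability. No paired analysis was possible because the count tables analysed here are all of SCCc and no replicate number is given for the footprint library.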
